A study of Mus musculus with 7 samples.

Results

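A set of 380 promoter peaks carried more H3K27ac (histone H3 acetylated at lysine 27, a mark of active promoters and enhancers) at 12 h after NeuroD1 induction than before it. They were chosen from 66841 merged ChIP-seq peaks by their read counts in mouse embryonic stem (ES) cells. A scaled count is a read count brought to a common depth, that is, the count over its library total times the average of the 6 totals. A promoter peak reached within 2 kb of the transcription start site (TSS) of any protein-coding gene. A promoter peak was taken when it held at least 20 reads on average, when its lower 12 h value was at least 1.3 times its higher 0 h value, and when its lower 48 h value was less than 1.3 times its higher 12 h value. Of 16416 promoter peaks, 13358 (81.4%) held at least 20 reads, and 430 of these (3.22%) met the 12 h limit. The 48 h limit left out 50 of the 430, and the remaining 380 made up 2.84% of the promoter peaks with at least 20 reads and 0.569% of all peaks. Since the 0 h, 12 h and 48 h values chose these peaks, their own values are given as a description, without a test.

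The cells were A2Lox mouse ES cells, grown without feeders, that carry a doxycycline-inducible transgene with the NeuroD1 coding sequence and an HA tag. All 3 groups carried this transgene. The 0 h group received no doxycycline, and the 12 h and 48 h groups received 500 ng/ml of it. Each group had 2 replicates, R1 and R2, and no source used here says whether they came from separate cultures, so p-values measure only the spread between these samples. No time-matched cells without doxycycline were analysed, so the effects of induction, of doxycycline and of time in culture cannot be told apart.

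NeuroD1 is a proneural basic helix-loop-helix (bHLH) transcription factor that binds E-box motifs as a dimer with an E protein and promotes neuronal differentiation. Id proteins have no DNA-binding region and hold E proteins in inactive dimers, and Notch signalling restrains proneural genes through Hes repressors. A promoter region contains the start site itself, where H3K27ac flanks the initiating polymerase, and the sequence beside it, which may hold separate regulatory elements.

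Reads in merged peaks totalled 6283103 to 8112895 per library, and the median peak held 30.5 reads on average, so counts of weak peaks carry a wide counting error. All 8 ES cell markers had a promoter peak, with a summed scaled count of 22200 to 22447 at 0 h, 25084 to 25226 at 12 h and 15121 to 19436 at 48 h. Of 8 neuronal markers 5 had one, with sums of 594 to 642 at 0 h, 477 to 494 at 12 h and 662 to 870 at 48 h, and Dcx, Snap25 and Syt4 had none. Of 8 markers of embryonic fibroblasts, the usual feeder cells, 2 had one, with sums of 57.3 to 67.7 at 0 h, 49.7 to 56.8 at 12 h and 66.2 to 154 at 48 h, and 6 had none, Col1a2, Col3a1, Postn, Prrx1, Thy1 and Twist2. Single markers did not all follow the sums. Nanog held 1991 and 1867 at 0 h and 1577 and 1598 at 12 h, while Pou5f1 held 3204 and 3295, then 4019 and 4290. Tubb3 held 107 and 109 at 0 h and 302 and 214 at 48 h, while Stmn2 held 327 and 286, then 304 and 273. In bulk ChIP-seq, a change in the number of cells that carry the mark and a change in the mark per cell cannot be told apart.

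The sequences below come from gained peaks of genes on the gene lists. They are shown because they hold paired E-boxes of the kinds that NeuroD1 and its relatives bind. Capitals mark CAGATG, which reads CATCTG on the other strand, and the palindrome CAGCTG. Windows of 150 bases were chosen within the gained peaks of listed genes for holding the most of these sites, outside annotated untranslated regions, because the 300 bases around the centres of the peaks considered for printing held at most 1 such site. All are from GRCm38 (mm10), plus strand. The Neurod1 window, chr2:79457846-79457995, is intergenic, 1169 bp upstream of the TSS. The Hes6 window, chr1:91412235-91412384, is exonic, 913 bp downstream of the TSS. The Tspan5 window, chr3:138812762-138812911, is intronic, 2962 bp downstream. The Id3 window, chr4:136140515-136140664, is intergenic, 2908 bp upstream. The Wnt5a window, chr14:28511113-28511262, lies in an intron 218 bp upstream of the nearest annotated TSS of the gene. The Cdh13 window, chr8:118284608-118284757, is intronic, 949 bp downstream.
Neurod1: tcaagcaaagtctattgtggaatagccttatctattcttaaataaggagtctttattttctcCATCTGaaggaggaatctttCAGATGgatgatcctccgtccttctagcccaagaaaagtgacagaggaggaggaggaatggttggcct
Hes6: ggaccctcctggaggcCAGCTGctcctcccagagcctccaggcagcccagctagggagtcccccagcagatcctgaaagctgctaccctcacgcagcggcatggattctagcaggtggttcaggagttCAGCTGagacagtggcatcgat
Tspan5: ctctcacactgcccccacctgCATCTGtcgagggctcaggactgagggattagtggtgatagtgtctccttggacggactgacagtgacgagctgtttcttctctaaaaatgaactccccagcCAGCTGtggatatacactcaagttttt
Id3: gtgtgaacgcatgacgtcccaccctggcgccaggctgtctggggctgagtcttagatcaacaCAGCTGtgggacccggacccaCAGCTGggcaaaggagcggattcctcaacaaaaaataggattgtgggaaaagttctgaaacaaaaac
Wnt5a: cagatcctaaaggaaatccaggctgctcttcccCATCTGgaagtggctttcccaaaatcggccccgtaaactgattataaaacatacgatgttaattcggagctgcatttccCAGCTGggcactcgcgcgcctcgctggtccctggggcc
Cdh13: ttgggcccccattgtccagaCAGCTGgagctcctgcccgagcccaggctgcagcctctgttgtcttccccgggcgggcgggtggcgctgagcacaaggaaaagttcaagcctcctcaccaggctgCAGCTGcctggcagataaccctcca
The Neurod1 window held 2 CAGATG sites. Those of Tspan5 and Wnt5a held 1 CAGATG and 1 CAGCTG each, and those of Hes6, Id3 and Cdh13 held 2 CAGCTG sites each. Within 250 bp of the peak centre, CAGATG on either strand stood in 138 of the 380 gained peaks (36.3%), in 20.6% of the 13358 promoter peaks, in 29.3% of all merged peaks and in 36.9% of peaks away from promoters that met the same count limits. CAGCTG stood in 24.5% of the gained peaks, 24.2% of the promoter peaks and 25.2% of all merged peaks. A match is a stretch of letters and not a measured binding site.

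The 380 peaks belonged to 337 genes on 20 chromosomes and formed 331 loci at least 50 kb apart, of which 296 held a single gained peak. In 10 loci, 3 to 5 gained peaks stood together, among them those of Otx2, Tspan5, Prmt8 and Gfra3. The median scaled count over the 380 peaks was 61.6 and 58.9 in the 0 h libraries (R1, R2), 143 and 135 at 12 h, then 87.7 and 108 at 48 h. The 48 h medians lay between those of 0 h and 12 h, and the 48 h replicates differed more than those of the other time points.

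**Figure D1:**
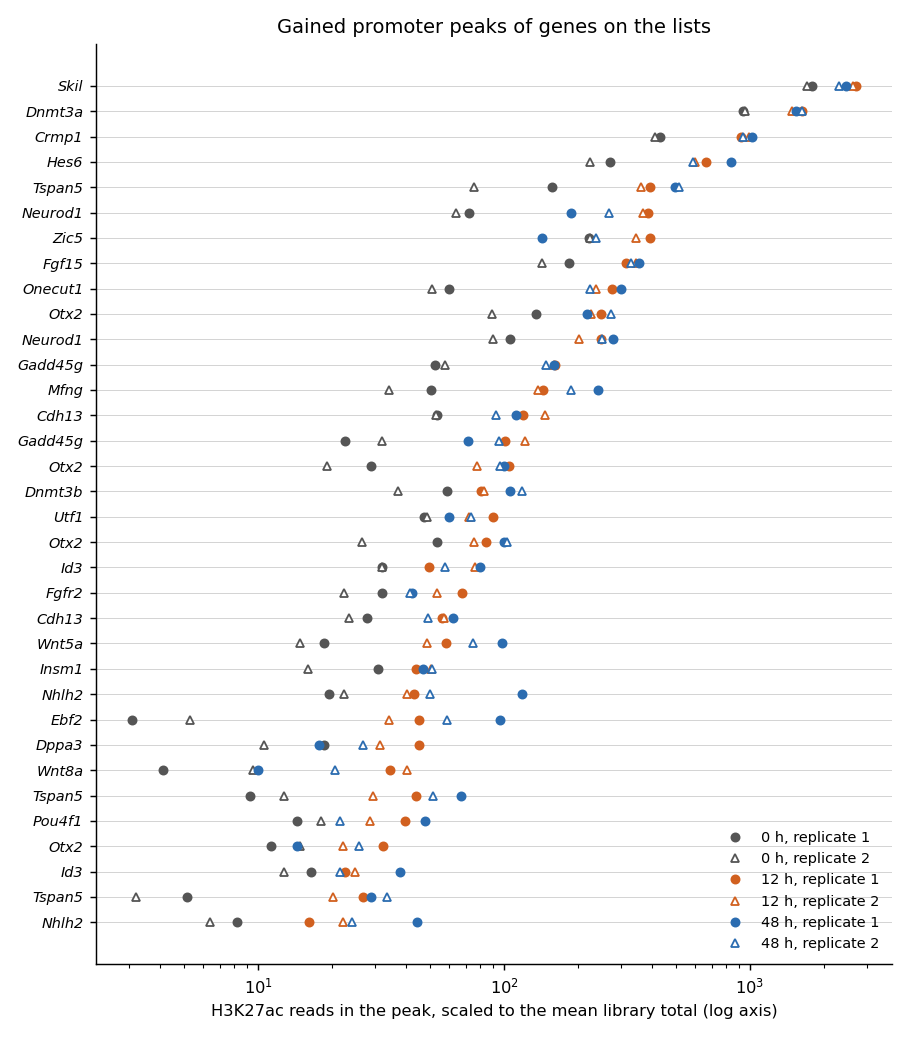
Scaled H3K27ac counts (log axis) of the 34 gained promoter peaks of 24 genes on the gene lists, 1 row per peak, with filled circles for replicate 1 and open triangles for replicate 2. In every row both 12 h points lie right of both 0 h points, as the rule required, and the 48 h points range from far right of the 12 h points (Ebf2) to the level of 0 h (Zic5).

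Of the proneural bHLH factors, Neurod1 and Nhlh2 had gained peaks. Neurod1 had a pair of them. The peak at chr2:79456988-79460121, with its centre 1803 bp upstream of the TSS, held scaled counts of 71.8 and 63.7 at 0 h, 385 and 366 at 12 h, then 187 and 268 at 48 h. Its mean rose 5.54-fold by 12 h and stood 3.36-fold above 0 h at 48 h. This peak lies outside the Neurod1 coding sequence (chr2:79453967-79455037). The peak over the TSS at chr2:79454052-79456929 held 106 and 90.2 at 0 h, 249 and 202 at 12 h, then 277 and 250.2 at 48 h. It overlaps the coding sequence that the transgene also carries, so its reads may come from the transgene or from the endogenous gene. Nhlh2, a bHLH factor of newborn neurons, had 2 gained peaks over exons downstream of its TSS. The stronger one held 19.5 and 22.3 at 0 h, 42.9 and 40.5 at 12 h, then 119 and 49.9 at 48 h, and its 48 h replicates differed more than its 12 h and 0 h means did. Of the other 3 proneural genes with a promoter peak, those of Neurod4 and Nhlh1 were gained at 12 h without meeting the rule, each being above the 48 h limit. The Neurod4 peak held 30.8 and 18.0 at 0 h, 47.2 and 55.2 at 12 h, then 150 and 187 at 48 h (log2 fold change 1.06 at 12 h, adjusted p = 0.0246, edgeR's quasi-likelihood test).

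Among E proteins and their inhibitors, Id3 alone of 7 genes had gained peaks. The Id3 peak 2517 bp upstream of the TSS held 31.8 in both 0 h libraries, 49.3 and 76.4 at 12 h, then 79.9 and 57.6 at 48 h. The weak peak over the Id3 TSS held 12.7 to 16.4 at 0 h, 22.5 and 24.8 at 12 h, then 37.7 and 21.5 at 48 h. The strongest Id3 promoter peak did not meet the rule, with 61.6 and 63.7, 62.2 and 82.8, and 79.9 and 52.5. Among the other 6 genes, the strongest promoter peak of Tcf3, an E protein, was called lost at 12 h, and at 48 h against 0 h 3 were called gained.

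Of 21 Notch pathway genes with a promoter peak, Hes6 and Mfng had gained peaks. Hes6, a Hes family member that promotes neuronal differentiation, held 269 and 224 at 0 h, 660.5 and 596 at 12 h, then 838 and 586 at 48 h, in a peak of 5362 bp over its TSS. Its 12 h and 48 h values overlapped, and both stood above 0 h (2.55-fold and 2.89-fold). Mfng, a glycosyltransferase that modifies Notch receptors, held 50.3 and 34.0 at 0 h, 144 and 138 at 12 h, then 242 and 187 at 48 h in an intronic peak at chr15:78770272-78772225. It was just inside the 48 h limit, at 1.299 times. Among the other 19 genes, the promoter peak of Dll3, a Notch ligand of neurogenic cells, was called gained at 12 h, and those of Hes7, Jag2, Notch2 and Notch3 were called lost.

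Ebf2, Insm1, Onecut1 and Pou4f1 had gained peaks among 25 neuronal differentiation transcription factors with a promoter peak. Ebf2, a factor of neuronal differentiation and migration, held 3.08 and 5.31 at 0 h, 45.03 and 34.0 at 12 h, then 96.6 and 58.5 at 48 h, in an exonic peak over its TSS at chr14:67233344-67234435. Its mean was 9.43 times the 0 h mean at 12 h and 18.5 times at 48 h, and the 0 h mean rests on a few reads. The strongest Ebf2 promoter peak was another, left out because it was above the 48 h limit. That peak held 15.4 and 10.6 at 0 h, 40.7 and 51.5 at 12 h, then 145 and 75.7 at 48 h. Onecut1, a homeodomain factor of developing neurons and endoderm, held 59.5 and 50.9 at 0 h, 275 and 235 at 12 h, then 299 and 224 at 48 h. It rose 4.62-fold by 12 h, and its 48 h values overlapped those of 12 h. The Insm1 peak, upstream of the gene of this zinc-finger factor of neuronal and endocrine progenitors, held 30.8 and 15.9 at 0 h, 44.0 and 50.6 at 12 h, then 46.6 and 50.7 at 48 h. Pou4f1, a factor of sensory neurons, held 14.4 and 18.0, 39.7 and 28.5, and 47.7 and 21.5 at the 3 time points. In the gained peaks named here for these 4 genes, 12 h and 48 h did not separate except in Ebf2. The strongest promoter peak of Insm1, left out because it was above the 48 h limit, did separate. It held 71.8 and 61.6 at 0 h, 177 and 144 at 12 h, then 362 and 269 at 48 h. Of the other 21 genes of the list, St18 was called gained at 12 h and 7 at 48 h. The St18 peak held too few reads to meet the rule, with 4.10 and 3.18 at 0 h and 19.3 and 11.0 at 12 h.

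A few later neuronal genes were in the set too, and no share is read from them, since the set took 2.84% of promoter peaks with at least 20 reads. Of 30 cytoskeleton and vesicle genes with a promoter peak, Crmp1 had a gained peak, and of 34 migration and axon guidance genes, Cdh13 and Tspan5 had. Crmp1, a cytoskeletal phosphoprotein of semaphorin signalling, held 429 and 409.7 at 0 h, 922 and 988 at 12 h, then 1017 and 937 at 48 h. Tspan5, a tetraspanin of the cell membrane, had 3 gained peaks, of which the widest, at chr3:138811873-138816625 in an intron, held 157 and 75.4 at 0 h, 394 and 361 at 12 h, then 494 and 516 at 48 h. All 3 Tspan5 peaks were higher in both 48 h libraries than in both 12 h libraries. Cdh13, a cadherin anchored to the membrane by a lipid, had 2 intronic peaks, and the wider one held 53.4 and 53.1, 119 and 147, and 112 and 92.9. Among the other 29 genes of the first list and 32 of the second, 4 of each were called lost at 12 h, and 7 and 6 were called gained at 48 h.

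Pluripotency and formative-state genes were among the gained peaks as well. Of 15 formative and primed state genes, all with a promoter peak, Otx2, Dnmt3a, Dnmt3b and Zic5 had gained peaks. Otx2, a homeodomain factor of the formative state and the anterior brain, had 4. The one over its exon at chr14:48664241-48665741 held 28.7 and 19.1 at 0 h, 105 and 77.3 at 12 h, then 99.9 and 96.3 at 48 h. In 3 of the 4 Otx2 peaks the 48 h values stayed above both 0 h values. The DNA methyltransferase gene Dnmt3a held 933 and 957, 1620.1 and 1475, and 1544 and 1620.0, in a peak of 10273 bp. Dnmt3b held 58.5 and 37.1, 80.4 and 82.8, and 106 and 119 in an intronic peak. Zic5, a zinc-finger factor of the early neural plate, held 221 and 224, 394 and 344, and 143 and 237, so that its 48 h values enclosed those of 0 h. Dppa3 and Utf1, both ES cell genes, had weak upstream peaks with 12 h to 0 h folds of means of 2.62 and 1.69. The Dppa3 peak held 18.5 and 10.6 at 0 h, 45.03 and 31.3 at 12 h, then 17.8 and 26.7 at 48 h. The strongest promoter peaks of Dnmt3b, Zic5, Dppa3 and Utf1 were others, which did not meet the rule. Their log2 fold changes at 12 h were -0.32, -0.42, -0.50 and 0.35, and none was called changed. Those of Otx2 and Dnmt3a were gained peaks. Among the other 21 pluripotency genes, 3 promoter peaks were called lost at 12 h (Klf5, Nr0b1 and Tfcp2l1), and at 48 h 11 were called lost.

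Signalling genes contributed Wnt5a, Wnt8a, Skil, Fgf15 and Fgfr2, from 31 Wnt, Nodal, BMP and FGF genes with a promoter peak. Wnt5a, a non-canonical Wnt ligand, held 18.5 and 14.9 at 0 h, 57.9 and 48.8 at 12 h, then 97.7 and 74.8 at 48 h. Wnt8a, a canonical Wnt ligand, moved back, with 4.10 and 9.55, 34.3 and 40.5, and 9.99 and 20.6. Skil, a repressor of Smad signalling, held 1779.5 and 1705, 2702 and 2612, and 2457 and 2303 in a peak of 12263 bp. Fgfr2, a fibroblast growth factor receptor, held 31.8 and 22.3, 67.5 and 53.4, and 42.2 and 41.3 in an intronic peak, and its 48 h values lay between those of 0 h and 12 h. The strongest Fgfr2 promoter peak did not meet the rule, with a log2 fold change of 0.17 at 12 h. Fgf15, a secreted growth factor, held 184 and 143, 312 and 343, and 354 and 329. Gadd45g, a stress response and cell cycle gene, had 2 gained peaks, and the one over its exon held 52.3 and 57.3, 161 and 160.1, and 159.9 and 149. Wnt8a had risen 5.48-fold by 12 h and stood 2.24-fold above 0 h at 48 h. No gained peak belonged to the 9 mesoderm, endoderm and trophoblast regulators with a promoter peak, a number of genes too small to read anything from at 2.84%. The Cdx2 promoter peak of this list, with scaled counts of 1.03 and 2.12 at 0 h and 7.51 and 16.6 at 12 h, held too few reads to meet the rule and was called gained at 12 h (adjusted p = 0.0220, edgeR's quasi-likelihood test). The counts for list genes without a gained peak leave out the genes that met the rule, which lowers their number of gains at 12 h. Across all 66841 peaks, 9.93% were called gained and 6.03% lost at 12 h against 0 h (edgeR's quasi-likelihood test, adjusted p under 0.05). Among promoter peaks with at least 20 reads the shares were 2.47% gained and 20.6% lost, so the losses given for list genes at 12 h are to be read beside 20.6%. At 48 h against 0 h, 4.87% of those promoter peaks were called gained and 3.32% lost. The list counts at 48 h are to be read beside these shares.

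Apart from Ebf2, the steepest gains were of genes on none of the lists. The 8 peaks with the highest ratio of the lower 12 h to the higher 0 h count were those of Gm17026, Prmt8, Gm8165, Gfra3 (2 peaks), Ebf2, Defb46 and Itgbl1. Prmt8, an arginine methyltransferase of neurons, held 8.21 and 10.6 at 0 h, 117 and 97.5 at 12 h, then 38.9 and 50.7 at 48 h in a peak 1235 bp upstream of its TSS. Gfra3, a receptor for GDNF family ligands, held 10.3 and 5.31, 78.3 and 84.6, and 52.2 and 47.3 in the stronger of its peaks. Itgbl1, which encodes an integrin beta-like protein, held 7.18 and 6.37, 40.7 and 52.4, and 40.0 and 59.3. Prmt8 and Gfra3 kept part of the gain at 48 h, and Itgbl1 overlapped its 12 h values. The intergenic peak of Defb46, a beta-defensin gene, held 42.1 and 31.8, 254 and 248, and 89.9 and 175. The intergenic peak of the predicted gene Gm17026 held 10.3 and 7.43, 97.6 and 94.7, and 28.9 and 60.2. Of its sequence, 59.5% of 75-base words also stood in another merged peak, so its reads may be shared with near copies. In 12 of the 380 peaks, at least 50% of such words did so.

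The 5 peaks with the most reads were broad, from 15741 to 20379 bp. They belonged to Phc1, a Polycomb group gene, Cbfa2t2, which encodes a transcriptional corepressor, Cemip2, a hyaluronan-degrading membrane protein, Tdh, a threonine dehydrogenase used by mouse ES cells, and Katnal2, a katanin-like protein. Phc1 held 3579 and 3298 at 0 h, 5228 and 5478 at 12 h, then 3365 and 4819 at 48 h. The folds of the 12 h to the 0 h means were 1.54 to 1.95 in these 5 peaks, and the SDs within a time point were 23.4 to 237 at 0 h and 12 h and 466 to 1028 at 48 h. Cemip2, with 1880.0 and 1544, 3370.0 and 3294, and 3412 and 4071, was the one of the 5 whose 48 h values both stood above both 12 h values.

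At 48 h the set spread out. Both 48 h libraries lay above both 0 h libraries in 215 of the 380 peaks (56.6%, against 23.4% of all peaks with at least 20 reads), and both lay below both 12 h libraries in 240 (63.2%, against 33.3%). The rule used the same libraries, so nothing is read from these shares. The peaks that fell furthest from 12 h to 48 h were those of Pdgfc, Gpc4, Dgke, Ccdc117 and Zfhx3. Pdgfc, a platelet-derived growth factor, held 44.1 and 37.1 at 0 h, 99.7 and 114 at 12 h, then 9.99 and 16.3 at 48 h, which is below its 0 h values. Gpc4, a heparan sulphate proteoglycan of the cell surface, held 13.3 and 10.6, 54.7 and 58.0, and 12.2 and 14.6, a return to 0 h. Dgke, a diacylglycerol kinase gene, held 266 and 269, 657 and 684, and 159.9 and 259.7 in a peak over its TSS. These 3 genes ended at or near their 0 h counts or below them. The Ccdc117 peak, 2064 bp upstream of the TSS, held 12.3 and 11.7, 50.4 and 54.3, and 8.88 and 23.2. Zfhx3, a zinc-finger homeobox factor, returned to 28.9 and 22.4 from 81.5 and 75.4, with 25.7 and 21.2 at 0 h. The highest ratios of 48 h to 12 h means were those of Ebf2, Nhlh2 (2 peaks), Gm12248 and Fam110a, with log2 ratios of 0.76 to 1.03.

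**Figure D2:**
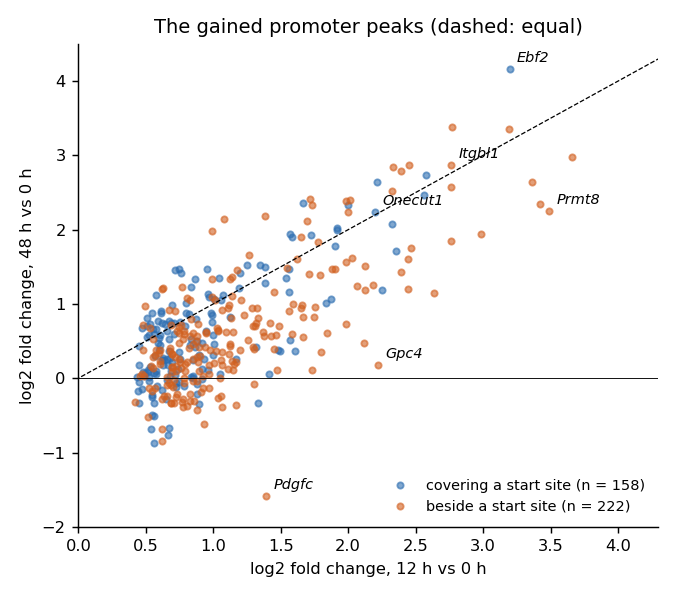
Log2 fold change at 48 h against that at 12 h, both relative to 0 h, for the 380 gained peaks, coloured by whether the peak covers a TSS. The rule kept every point right of 0, and most points lie below the dashed line of equal change, with Pdgfc lowest and Ebf2 highest.

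The counts that follow are from edgeR's quasi-likelihood test with adjustment over all 66841 peaks. At 12 h against 0 h, 275 of the 380 peaks (72.4%) were called gained, beside 9.93% of all peaks, with a median log2 fold change of 0.88. At 48 h against 0 h, 137 (36.1%) were called gained, beside 8.56% of all peaks, and 5 lost, beside 5.45%, with a median of 0.51. From 12 h to 48 h, 134 (35.3%) were called lost, beside 8.43%, and 3 gained, beside 10.7%, with a median of -0.45. The rule used all 3 contrasts, so these counts only describe how many chosen peaks also passed the test. The 275 became 131 without the 0 h R1 library, 85 without 0 h R2, 129 without 12 h R1 and 114 without 12 h R2. The 137 became 89 without 0 h R1 and 57 without 0 h R2. The 134 became 39 without 12 h R1, 34 without 12 h R2 and 214 without 48 h R2. Of the 380 peaks, 118 held under 50 reads on average, and 17 held at most 10 reads in both 0 h libraries.

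The 48 h replicates differed in this set, and also in distant peaks of the same course. The 48 h R1 count was below the R2 count in 299 of the 380 gained peaks (78.7%), in 25.3% of promoter peaks with at least 20 reads, in 54.1% of all peaks and in 87.9% of the 6069 peaks away from promoters that met the same count limits. R1 stood above both 0 h libraries in 229 of them (60.3%) and R2 in 317 (83.4%). Of the gain at 12 h, the median peak kept 20.8% in R1 (quartiles -16.6% and 77.9%) and 57.2% in R2 (26.9% and 108%). How much of the gain remained at 48 h therefore differed between the replicates.

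The rule applied to R1 alone took 631 promoter peaks, of which 389 (61.6%) also met it in the R2 libraries, where 5.92% of all promoter peaks with at least 20 reads did. Applied to R2 alone it took 791, of which the 389 (49.2%) met it in R1, where 4.72% of all did. These libraries were not used for the choice, and the peaks share genomic properties, so the shares are given without a test.

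Just inside the 12 h limit was a peak of Gm11084, at 1.3015 times, and just outside were those of Mup6, at 1.298 times, and Tmem220, at 1.2997 times. Just inside the 48 h limit were Ebf2, at 1.298 times, and Mfng, at 1.299 times, and just outside were Onecut2, at 1.3085 times, and Zfp638, at 1.312 times. The Onecut2 peak held 7.18 and 2.12 at 0 h, 20.4 and 18.4 at 12 h, then 60.0 and 26.7 at 48 h, a course like that of Ebf2.

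The gained peaks stood beside start sites more often than other promoter peaks. Of the 380, 158 (41.6%) covered a TSS, against 79.4% of the 13358 promoter peaks with at least 20 reads, and 128 (33.7%) lay over 1 kb from the nearest TSS, against 7.50%. By the centre of the peak, 192 lay in introns, 150 were intergenic and 38 lay in exons. Their median GC content within 250 bp of the centre was 46.2%, against 60.6% of the promoter peaks and 44.6% of the 6069 peaks away from promoters that met the same count limits. The median number of CpG dinucleotides in that window was 6, against 31 in promoter peaks and 4 in the peaks away from promoters. In base composition the set lay nearer to the distant peaks with the same course than to promoters at large, as a description and without a test.

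Several of the sequences printed above illustrate the position. The windows of Id3 and Tspan5 lie over 2 kb from the start site, and that of Neurod1 lies in the upstream peak. Among peaks under 50% GC that covered a TSS, CAGATG stood in 40.2% of 97 gained peaks and 28.2% of 1251 others. Among those that did not cover a TSS it stood in 28.2% of 163 gained peaks and 26.2% of 949 others. The shares lay further apart in the TSS-covering class, and this difference between classes was not tested. Above 50% GC, the CAGATG shares of gained peaks and of all promoter peaks with at least 20 reads were read by GC content alone. They were 43.4% and 29.0% to 55% GC, 56.2% and 23.6% to 60%, 50.0% and 21.1% to 65%, then 14.3% and 12.0% above. These GC ranges held 53, 32, 18 and 14 gained peaks. For CAGCTG the shares were 43.4% and 25.3%, 31.2% and 26.1%, 22.2% and 26.7%, then 42.9% and 24.9%. None of these shares was tested. The median log2 fold change at 12 h was 0.85 in the 242 gained peaks with no CAGATG site, 0.93 in the 111 with 1 and 1.03 in the 27 with 2 or more. The medians at 48 h against 0 h were 0.43, 0.59 and 0.67. The rule used the values behind these medians, and the classes were not matched for GC content. A trend with the number of sites was not tested. TGANTCA, the letters of AP-1 sites, searched on both strands, stood in 17.1% of gained peaks, 7.73% of promoter peaks and 18.2% of the peaks away from promoters that met the same limits. None of these motifs contains another.

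**Figure D3:**
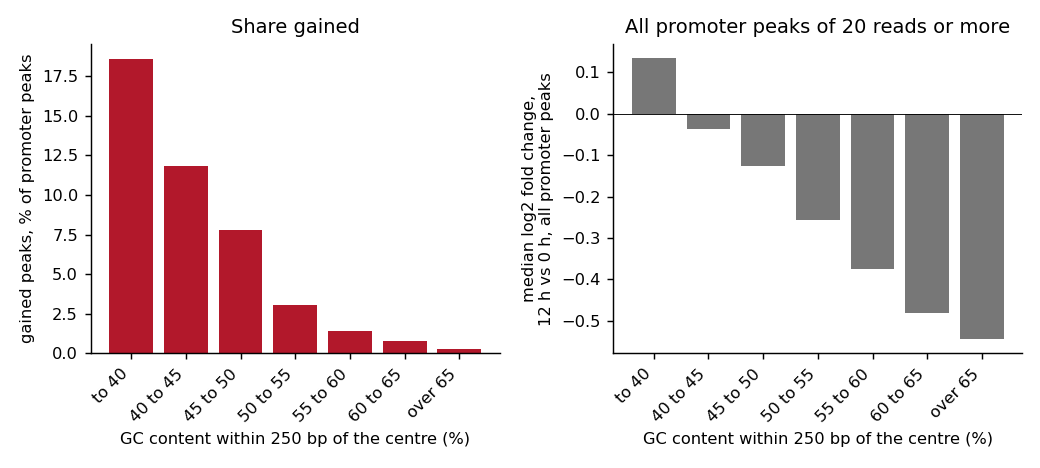
By GC content within 250 bp of the peak centre, the left bars give the gained peaks as a percentage of promoter peaks with at least 20 reads, and the right bars give the median log2 fold change at 12 h of all those promoter peaks. The share gained falls from 18.6% at or under 40% GC to 0.302% over 65%, and the median fold change falls from 0.13 to -0.54.

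The count change of promoter peaks as a whole depended on GC content. Promoter peaks with at least 20 reads had a median log2 fold change of -0.39 at 12 h, from 0.13 at or under 40% GC to -0.54 over 65% GC. When each library was corrected by a smooth curve on GC content, 243 of the 380 gained peaks (63.9%) still met the rule and 137 did not, among 384 peaks that met it. Of the TSS-covering gained peaks 63.3% met it, and of the others 64.4%. The median GC content was 48.8% in those that met it and 43.0% in those that did not. Of the 34 gained peaks of listed genes, 30 still met it, and those that did not were 1 peak each of Id3, Tspan5, Utf1 and Zic5. The part of GC-dependent recovery of DNA in the gains of the other peaks was not tested.

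Start-site peaks that did not meet the rule mostly had a smaller log2 fold change at 12 h than a gained peak of the same gene. Of the 201 genes with a gained peak that did not cover a TSS, 109 had a separate start-site peak that did not meet the rule. In 20 of the 201 genes, a gained peak also covered a TSS. The start-site peak was the strongest one of the gene that did not meet the rule, at any distance from the gained peak. In Plekhg1, for example, it stood at chr10:3740154-3741185 and the gained peak at chr10:3872885-3873364. Over these 109, the median scaled count was 217 and 219 at 0 h, 182 and 180 at 12 h, then 251 and 216 at 48 h, so the 12 h medians were the lowest. By edgeR's quasi-likelihood test, 7 (6.42%) were called gained and 13 (11.9%) lost at 12 h, with a median log2 fold change of -0.19. All 11109 promoter peaks that covered a TSS had 1.49% gained and 23.3% lost, with a median of -0.43. The start-site peaks of these 109 genes thus fell less than start-site peaks at large. The 116 gained peaks of those genes had a median of 0.97. In 115 of the 116 pairs the start-site peak had the smaller log2 fold change, and in 69 it was below 0. The gained peak was chosen for its rise and the start-site peak for not meeting the rule, so this order is a description. With the correction on GC content, 17 of the 109 were called gained and 9 lost, with a median of -0.05. At 48 h against 12 h, 25 of the 109 (22.9%) were called gained and 7 (6.42%) lost, against 35.3% and 1.90% of all TSS-covering promoter peaks.

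Gpc4 showed this contrast. Its gained peak rose 4.70-fold by 12 h, while the peak over its TSS held 88.3 and 88.1 at 0 h, 49.3 and 50.6 at 12 h, then 83.3 and 47.3 at 48 h, and was called lost at 12 h (log2 fold change -0.82, adjusted p = 0.0485, edgeR's quasi-likelihood test). Itgbl1 was of the other kind. The peak over its TSS held 31.8 and 19.1, 115 and 110, and 161 and 222, and was called gained at 12 h with a log2 fold change of 2.13.

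**Figure D4:**
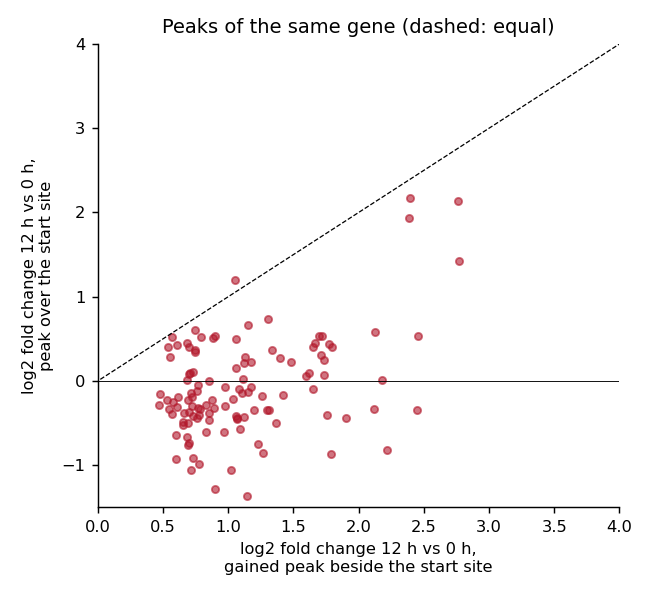
Log2 fold change at 12 h against 0 h of the start-site peak that did not meet the rule (vertical axis) against that of a gained peak of the same gene that covered no TSS (horizontal axis). Each gained peak is 1 point, n = 116, and the paired peaks may lie at different promoters of the gene. All but 1 point lie below the dashed line of equal change, and 69 lie below 0 on the vertical axis.

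Other peaks of the 337 genes, within the gene body or 10 kb of it, were tested. Those away from promoters had no part in the rule, and those at promoters had not met it. At 12 h, 346 of 2136 (16.2%) were called gained, beside 9.93% of all peaks, and 45 (2.11%) were called lost, beside 6.03%. The median log2 fold change was 0.31, against -0.08 over all peaks. Of the 1687 that lay away from promoters, 316 (18.7%) were called gained, against 12.4% of all 50425 peaks away from promoters. Of the 449 at promoters, 30 (6.68%) were called gained, against 2.40% of all promoter peaks. The 2.40%, 394 peaks, includes 275 of the 380 gained peaks, which the 449 leave out. At 48 h, 275 (12.9%) were called gained, beside 8.56%. From 12 h to 48 h, 147 were called gained and 201 lost. Peaks of 1 gene are neighbours and may be parts of 1 acetylated stretch, so they are not independent.

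Single libraries moved these counts. The 346 gained at 12 h became 175 without 0 h R1, 84 without 0 h R2, 170 without 12 h R1 and 144 without 12 h R2, and 551 and 547 without 48 h R1 or R2. The share of these other peaks was above the share of all peaks in each of these fits, from 3.93% beside 2.18% to 25.8% beside 16.2%. The 275 gained at 48 h became 156 without 0 h R1 and 71 without 0 h R2, and there too the share stayed above that of all peaks, at 7.30% beside 4.89% and 3.32% beside 2.46%.

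**Figure D5:**
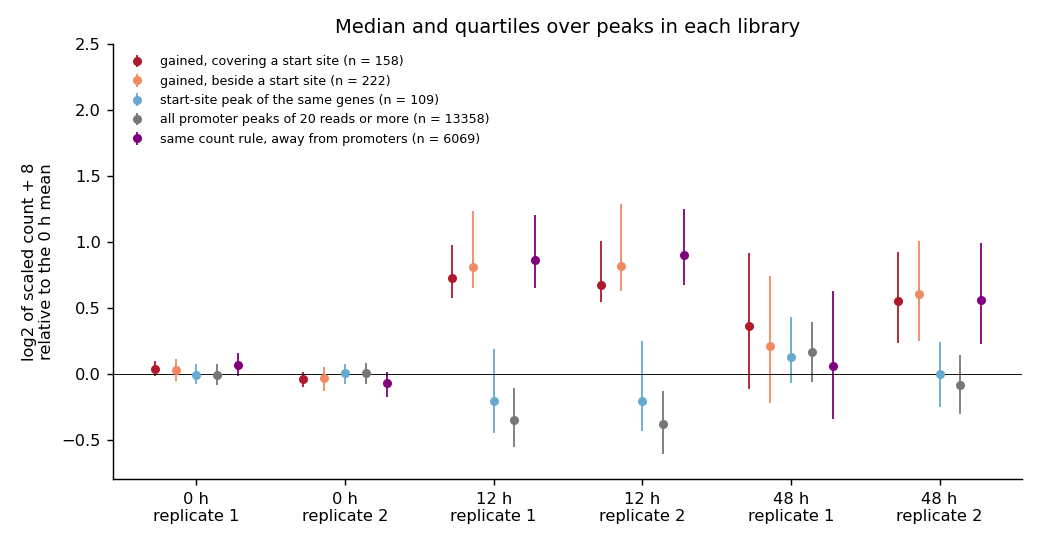
Median (point) and quartiles (bars) over peaks of log2 scaled count plus 8, relative to the mean of the 0 h libraries, in each library for 5 groups of peaks. At 12 h both classes of gained peaks lie above 0 and the start-site peaks of the same genes lie below it, and at 48 h the gained peaks are higher in replicate 2 than in replicate 1.

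Across the libraries, gained peaks beside the TSS had higher medians at 12 h than those covering it. Their medians of log2 scaled count plus 8 relative to 0 h were 0.81 in both 12 h libraries, against 0.73 and 0.67. The rule used the 12 h values, so this order is a description. The peaks beside the TSS were also weaker, with a median of 56.9 reads against 280. Their median log2 fold change at 12 h was 1.01 against 0.75, and 0.85 against 0.75 with the correction on GC content. At 48 h the medians of the peaks beside the TSS were 0.21 in R1 and 0.61 in R2, and those of the covering peaks were 0.36 and 0.55. The peaks away from promoters with the same course had 0.86 and 0.90 at 12 h and 0.06 and 0.56 at 48 h. At 12 h all 3 groups had medians above 0 in both libraries, and at 48 h R1 the order of the groups differed from that in R2.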

How the data were processed

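Per the labels and the study's methods, the authors aligned H3K27ac ChIP-seq reads to mm10 with Bowtie2, handled them with SAMtools 0.1.19, called peaks with MACS2 against Input, merged peaks over samples and counted reads per merged peak with QuasR. The authors deposited these raw counts for 6 libraries, with totals from 6283103 to 8112895. The Input library was not used here, and the table holds no summit positions. FastQC is also named in the submitters' processing notes, and the other versions are not given in the sources used here.

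Counts were scaled to library totals, and medians by library used log2 with a pseudocount of 8. The study's methods also state a normalisation for library size. Time points were compared with edgeR 4.0.16 (glmQLFit, glmQLFTest) in R 4.3.3, in 1 model of all 6 libraries with library totals as offset and Benjamini-Hochberg adjustment over all 66841 peaks (threshold 0.05, biological coefficient of variation 14.9%, 3 residual degrees of freedom). The fits and the rule were tested on simulated data. Each peak was given the protein-coding gene (GENCODE M21, GRCm38) with the TSS nearest to its centre among those in the window. The chromosome names and lengths of the RefSeq GRCm38.p6 sequence, from which the printed windows, GC content and motifs were read with pysam 0.24.0, matched the peak coordinates. Python 3.11.15, numpy 2.4.6, pandas 2.3.3 and matplotlib 3.10.9 were used.

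The members of the set, the 12 gene lists and the tests were chosen with earlier results of these data known. Named peaks were the 8 with the highest ratio at 12 h, the 5 with the most reads, all on a gene list, the 5 highest and 5 lowest in 48 h to 12 h ratio, and those next to each limit. A peak named by this rule is not reported here. The printed sequence windows depart from the rule of bases around the peak centre, because those held too few sites, and the comparison with start-site peaks was added after values were seen. Alternatives were TMM factors, DESeq2 1.42.0, a filter of 10 counts in 2 libraries, a replicate block, the 4 libraries of each contrast alone, a GC offset (lowess, span 0.3), other limits of the rule and leaving out each library.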

Additional observations from a re-analysis of the deposited data

Results flagged for a closer look

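In 137 of the 380 gained peaks, the changes at 12 h and at 48 h relative to 0 h differed by the direct test of 48 h against 12 h (edgeR's quasi-likelihood test, adjusted p under 0.05). Of these, 134 (35.3% of the 380) were called lost and 3 (0.789%) gained, beside 8.43% and 10.7% of all peaks. The rule used these libraries, so these counts describe the chosen peaks. Among the other peaks of their genes, which lay away from promoters or had not met the rule, 348 of 2136 differed in the same test. Of them 6.88% were gained and 9.41% lost, beside 10.7% and 8.43% of all peaks.

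Of the named peaks with such a difference, those that fell from 12 h to 48 h had log2 fold changes of -2.98 (Pdgfc), -2.05 (Gpc4), -1.67 (Dgke), -1.65 (Ccdc117), -1.62 (Zfhx3), -1.24 (Wnt8a), -1.24 (Prmt8), -1.08 (Gm17026), -1.04 (Gm8165), -0.95 (Zic5), -0.91 (Defb46), -0.78 (Cbfa2t2), -0.72 (the upstream peak of Neurod1), -0.48 (Katnal2) and -0.45 (Tdh). Those that rose further had 0.96 (Ebf2), 0.99 (the stronger peak of Nhlh2) and 1.06 (Gm12248). The 48 h R1 count was below that of R2 in 78.7% of the 380 peaks, but above it in Ebf2 (96.6 and 58.5) and in the stronger Nhlh2 peak (119 and 49.9).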

How the results depend on the processing

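The 380 gained promoter peaks became 227 with a limit of 1.5-fold at 12 h, 252 with a promoter window of 1 kb and 653 with no count minimum, and 351 to 688 when 1 library was left out. They became 457 with TMM factors (377 shared with the 380), 433 with DESeq2 size factors (374 shared), 529 with a limit of 1.2-fold and 262 with at least 50 reads. With the GC offset 384 peaks met the rule, but 243 of them were shared.

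Over all peaks, DESeq2 called 5199 changed at 12 h against 0 h, 4558 at 48 h against 0 h and 7428 at 48 h against 12 h, where edgeR called 10666, 9365 and 12796. The 4 libraries of each contrast alone gave 21403 at 12 h and 8368 at 48 h against 12 h. Leaving out 1 library gave 1559 to 21376, 1967 to 15737 and 1742 to 24591. With fewer libraries the model has fewer residual degrees of freedom, and a lone library is assumed to vary like the others. Of the gained promoter peaks, 85 to 354 were called gained at 12 h, 57 to 200 gained at 48 h, and 34 to 214 lost from 12 h to 48 h when 1 library was left out, and the 4 libraries alone gave 89 lost. Of the other peaks of their genes, DESeq2 called 210 gained at 12 h and 177 at 48 h, the 4 libraries alone gave 550 at 12 h, and leaving out 1 library gave 84 to 551 and 71 to 406.

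Samples with the same replicate number did not deviate together: the correlations of the R1 minus R2 deviations were -0.04 for 0 h and 12 h, -0.05 for 0 h and 48 h and 0.08 for 12 h and 48 h. With a replicate block, 10923, 9716 and 13109 peaks changed in the 3 contrasts. Of the gained promoter peaks, the block gave 273 gained at 12 h, 136 gained at 48 h and 136 lost from 12 h to 48 h, and of the other peaks of their genes 363 and 282 gained at 12 h and 48 h. Of 1320 alternative values of the 110 log2 fold changes of named peaks, 77 moved by more than the spread between replicates, and no called value changed sign. Read over whole peaks instead of 500 bp windows, CAGATG stood in 71.1% and CAGCTG in 58.9% of the gained peaks, with a median GC content of 46.5%. Depth limits the weak peaks, since 118 of the 380 held under 50 reads on average.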
